A study of Mus musculus with 10 samples.

Results

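Among the 32361 gene rows measured in sorted mouse embryonic stem (ES) cells, 7 protein-coding genes known mostly by placeholder names, Gm5662, Gm2022, Gm2016, Gm8300, Gm20767, Gm12794 and Gm13119, form a set of multicopy genes with high RNA in Zscan4-positive cells and almost none in Zscan4-negative cells. The set was chosen on exactly those values, so the contrast between the Zscan4 fractions is a description and supports nothing. Each of the 7 genes has 1 row in the table, and all 7 were found. The cells are of the E14Tg2a.4 ES line. In one reporter line a piggyBac insert carries a reporter under a fragment of the Zscan4c promoter, and it was sorted into Zscan4-positive and Zscan4-negative cells. The reporter follows that promoter fragment and not the endogenous Zscan4c gene itself. In the other line fluorescent proteins were knocked in at Esrrb and at Tbx3, transcription factor genes of naive pluripotency. From it came 3 fractions: cells negative for both reporters (Esrrb-/Tbx3-, called double-negative below), cells with the Esrrb reporter alone (Esrrb+/Tbx3-, single-positive) and cells with both (Esrrb+/Tbx3+, double-positive). The sources used here do not say whether each line is 1 clone. The labels list 2 libraries per fraction, collected on different days, but the values are 1 FPKM (fragments per kilobase of transcript, scaled to mapped fragments) per gene and fraction. No value below therefore has an SD, a replicate check or a test, and the depth of the libraries is unknown.

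A small share of cells in ES cultures passes through a transient state that resembles the totipotent 2-cell embryo. In that state cells switch on Zscan4, the transcription factor gene Dux, endogenous retroviruses and a group of young, repeatedly duplicated gene families that are otherwise used around zygotic genome activation. Several such families meet in the set. Gm5662, Gm2022, Gm2016 and Gm8300 are copies related to Eif1a, which encodes a translation initiation factor that helps the small ribosomal subunit scan for the start codon. Gm20767 belongs with Tcstv1 and Tcstv3, genes known for their transcripts in 2-cell embryos. Gm12794 and Gm13119, listed by RefSeq as Pramel19 and Pramel31, are members of the PRAME-like family of leucine-rich repeat proteins, which is expressed in the germline and the early embryo.

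Coordinates are those of mm10. The 4 EIF1A-like genes span 760.182 kb of chromosome 12, with Gm8300 at chr12:87514316-87518265, Gm2016 at chr12:87874072-87877859 and Gm2022 at chr12:87892834-87896722, all on the plus strand, and Gm5662 at chr12:88270635-88274497 on the minus strand. Gm20767 is at chr13:120140246-120155335, Gm12794 at chr4:101940407-101943183 and Gm13119 at chr4:144357964-144364419, all on the plus strand. The coordinates of all 7 equal those of RefSeq on GRCm38.p6. In the GENCODE M21 annotation Gm5662, Gm2016 and Gm8300 have 2 exons each with the 432-base coding sequence in 1 of them, and Gm2022 is annotated with 1 exon. Gm20767 has 3 exons with a 507-base coding sequence in 1 of them. The PRAME-like coding sequences are spread over 3 exons each, with 1449 bases in Gm12794 and 1443 bases in Gm13119.

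How nearly alike the EIF1A-like copies are decides how well their values can be told apart, so a stretch of their coding sequences is shown, bases 251 to 370 counted from the A of the start codon (GENCODE M21, chromosome 12). It is the 120-base stretch with the most positions that vary among the 4 copies. Capitals mark bases that differ from Gm5662.
Gm5662: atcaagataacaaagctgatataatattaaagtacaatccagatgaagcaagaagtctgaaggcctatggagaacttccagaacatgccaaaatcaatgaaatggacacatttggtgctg
Gm2022: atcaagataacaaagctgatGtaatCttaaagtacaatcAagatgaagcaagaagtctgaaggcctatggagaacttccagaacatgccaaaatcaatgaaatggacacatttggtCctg
Gm2016: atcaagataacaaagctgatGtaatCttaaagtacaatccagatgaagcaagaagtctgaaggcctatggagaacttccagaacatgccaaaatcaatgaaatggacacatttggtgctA
Gm8300: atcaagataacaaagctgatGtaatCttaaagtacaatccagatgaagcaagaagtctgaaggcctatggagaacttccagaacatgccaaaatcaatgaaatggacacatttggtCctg
Even this stretch holds only 5 variable positions, and the whole 432-base coding sequence holds 12. Over its full length the coding sequence of Gm2022 differs from that of Gm5662 at 7 bases, that of Gm2016 at 4 and that of Gm8300 at 8.

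The likeness extends over the transcripts. Of all 50-base windows of the annotated Gm5662 transcript, 22.1% occur in no other GENCODE gene, and 72.1% also occur in Gm2016. For Gm2016 18.7% of windows are its own, and for Gm2022, whose GENCODE transcript covers the coding sequence alone, 2.85%. Gm8300 has the largest share of the EIF1A-like genes, 73.4%. Its coding sequence is still 99.5% identical to that of Gm8332, and 15.7% of Gm8300 windows also occur in Gm8332. The share covers annotated transcripts only, so it also depends on how much of each copy is annotated. The share is 29.8% for Gm20767 and 61.4% for Gm13119. For Gm12794, whose GENCODE transcript also covers the coding sequence alone, it is 52.7%. Reads from shared windows cannot be assigned to 1 copy, so the split of the signal among copies, above all between Gm5662 and Gm2016, is uncertain, and sums over copies are given beside single values. A sum lessens this uncertainty but does not remove it, since FPKM is divided by transcript length and the annotated transcripts differ in length, 435 bases for Gm2022 against 1766 to 1873 for the other EIF1A-like genes in GENCODE. The sources used here do not give the lengths used by the authors. The Gm2022 row spans 3889 bases of the genome, beside 3788 to 3950 for the other EIF1A-like genes. It is thus wider than the 435-base GENCODE transcript, and the 2.85% may not hold for the transcript behind its values. The broadly expressed gene Eif1a also shares windows with the 4 copies, 1.95% of those of Gm5662, 3.61% of Gm2016, 2.63% of Gm8300 and 13.7% of Gm2022.

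**Figure D1:**
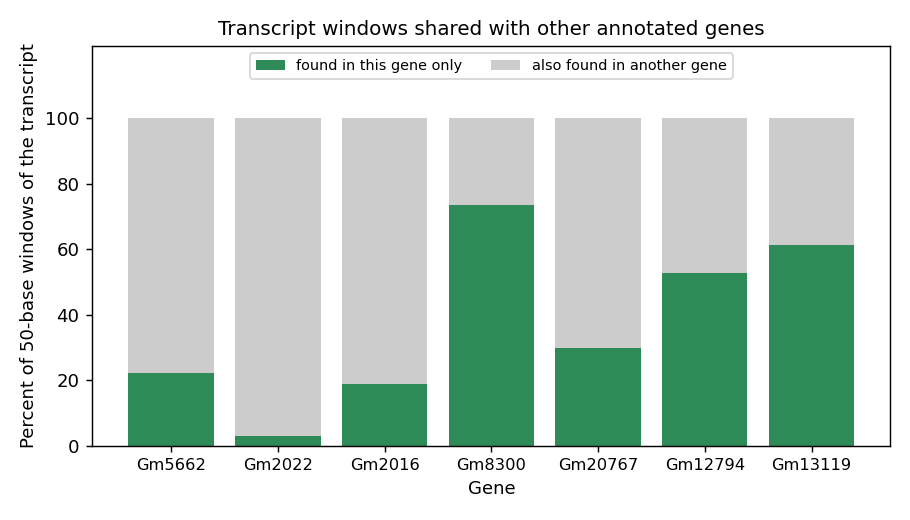
Percent of the 50-base windows of each gene's annotated transcript (GENCODE M21) that occur in that gene only (green) or also in another annotated gene (grey). Gm2022, annotated there with its coding sequence alone, has 2.85% of windows of its own and Gm8300 73.4%.

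In Zscan4-positive cells the 7 genes were abundant transcripts. Together they reached 750.3 FPKM, or 0.136% of the column total, against 0.939 FPKM in Zscan4-negative cells. Gm5662 was highest, with 191 FPKM in Zscan4-positive cells against 0.216 FPKM in Zscan4-negative cells. In the other line double-negative cells had 0.505 FPKM, single-positive cells 0.171 and double-positive cells 2.04. Double-positive cells thus held the most Gm5662 RNA outside the Zscan4-positive fraction.

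Among the other EIF1A-like genes, Gm8300 was at 126 FPKM in Zscan4-positive cells against 0.133 FPKM in Zscan4-negative cells, and at 0.391, 0.0965 and 1.29 FPKM in double-negative, single-positive and double-positive cells. Gm2022 was at 88.7 and 0.147 FPKM in the Zscan4-positive and Zscan4-negative fractions, and at 0.236, 0.0591 and 1.06 FPKM in double-negative, single-positive and double-positive cells. Gm2016 had the lowest level of the 4 in Zscan4-positive cells, 72.8 FPKM against 0.107 FPKM in Zscan4-negative cells, with 0.395, 0.159 and 0.615 FPKM in double-negative, single-positive and double-positive cells. All 4 copies had their second highest level in double-positive cells. Summed over the 4 copies, the level was 479 FPKM in Zscan4-positive cells against 0.603 FPKM in Zscan4-negative cells, and 1.53, 0.486 and 5.01 FPKM in double-negative, single-positive and double-positive cells.

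The TCSTV-like Gm20767 was at 149.03 FPKM in Zscan4-positive cells against 0.310 FPKM in Zscan4-negative cells, the highest Zscan4-negative level of the set. Of the Esrrb/Tbx3 fractions, double-negative cells had 0.565 FPKM, single-positive cells 0.175 and double-positive cells 1.4999. The order of fractions is the one seen for Gm5662, Gm8300 and Gm2022. Gm20767 is on another chromosome and shares no 50-base window with Eif1a. What part shared reads have in the order was not tested.

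The PRAME-like Gm12794 was at 88.3 FPKM in Zscan4-positive cells against 0.0255 FPKM in Zscan4-negative cells, and at 0.380, 0.115 and 1.03 FPKM in double-negative, single-positive and double-positive cells. Gm13119 was the lowest of the set at 34.0 FPKM in Zscan4-positive cells and was listed at 0 in Zscan4-negative cells, with 0.120, 0.0582 and 0.585 FPKM in double-negative, single-positive and double-positive cells. Both PRAME-like genes were lower in Zscan4-negative than in single-positive cells, as was Gm2016, while the other 4 genes were lower in single-positive cells. With 1 value per fraction there is no spread against which these small levels could be called different.

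**Figure D2:**
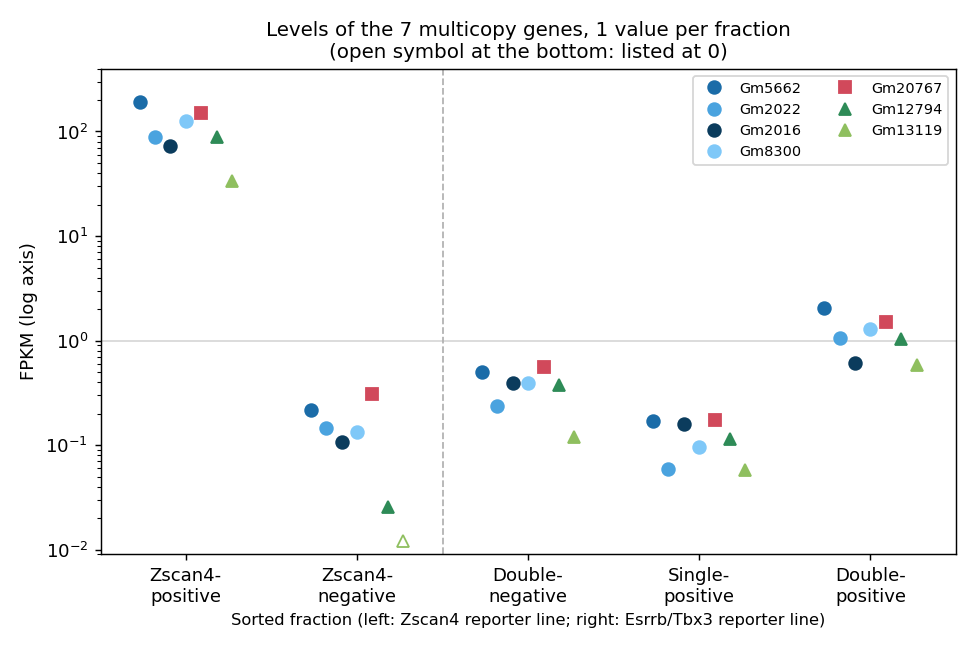
FPKM (log axis) of the 7 genes in the 5 sorted fractions, 1 point per gene and fraction; circles are EIF1A-like, the square TCSTV-like and triangles PRAME-like genes, and the open symbol marks Gm13119, listed at 0 in Zscan4-negative cells. Zscan4-positive cells have levels between 34.0 and 191 FPKM, and the next highest fraction is the double-positive one, at 0.585 to 2.04 FPKM.

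The PRAME-like genes are the only ones of the set with an entry in the RefSeq promoter table (2 of 7 matched). Their windows from 250 bases before to 50 after the annotated start are therefore shown (GRCm38.p6, plus strand, chr4:101940157-101940456 and chr4:144357714-144358013). Capitals mark motif matches. For Gm12794 the annotated start is also the first base of the coding sequence.
Gm12794: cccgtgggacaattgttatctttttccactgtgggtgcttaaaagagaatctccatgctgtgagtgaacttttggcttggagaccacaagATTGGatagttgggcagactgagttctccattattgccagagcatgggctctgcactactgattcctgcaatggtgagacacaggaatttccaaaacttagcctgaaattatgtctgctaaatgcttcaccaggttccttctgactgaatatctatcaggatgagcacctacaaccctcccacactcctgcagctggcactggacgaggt
Gm13119: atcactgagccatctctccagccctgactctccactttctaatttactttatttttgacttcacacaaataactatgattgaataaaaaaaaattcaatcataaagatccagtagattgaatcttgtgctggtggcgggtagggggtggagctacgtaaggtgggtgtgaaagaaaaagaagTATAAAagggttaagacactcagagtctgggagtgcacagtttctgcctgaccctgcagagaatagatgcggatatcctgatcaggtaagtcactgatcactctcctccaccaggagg
These motifs were searched on both strands: the double homeobox core motif, the TATA box TATAAA and the CCAAT box. The Gm13119 window holds 1 TATAAA on the plus strand, at -68 from the annotated start. That motif is found in 13.6% of all promoter windows in the table. The Gm12794 window holds 1 CCAAT on the minus strand, at -160, a motif found in 37.4%. Neither window holds an exact match to the double homeobox core, which is found in 0.0335% of windows. With so rare a motif its absence says little, and near matches were not searched. The motifs have no overlap with each other in these windows. A match is a description of the letters and not a binding site.

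Expressed as a percentage of the Zscan4-positive level, the trace in the other fractions was small and similar among the 7 genes. In double-positive cells it was between 0.844% for Gm2016 and 1.72% for Gm13119, with a median of 1.06%. In double-negative cells it was between 0.264% for Gm5662 and 0.542% for Gm2016, with a median of 0.353%. In single-positive cells it was between 0.0666% for Gm2022 and 0.219% for Gm2016, with a median of 0.117%, and in Zscan4-negative cells between 0 for Gm13119 and 0.208% for Gm20767, with a median of 0.113%. The ranges of double-positive and double-negative cells did not overlap each other or those of the other 2 fractions. These are ranges over genes, with 1 value per gene and fraction, and give no spread within a fraction. The comparison of ranges is a description only. The genes were chosen by their Zscan4-positive level, the base of these percentages, and by their low Zscan4-negative values. The copies also share sequence, so the 7 traces are not independent. In bulk RNA a trace of this kind cannot tell fewer cells with the transcript from less transcript per cell. Summed over the 4 EIF1A-like copies double-positive cells had a trace of 1.05%, double-negative cells of 0.319%, single-positive cells of 0.101% and Zscan4-negative cells of 0.126%, close to the medians over all 7 genes.

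**Figure D3:**
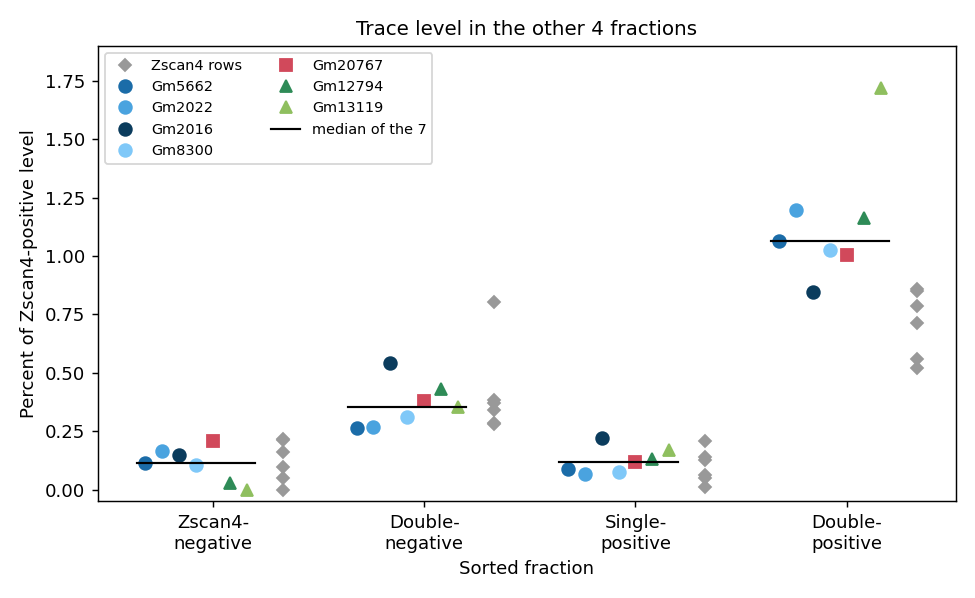
Level of each of the 7 genes in the other 4 fractions as a percentage of its level in Zscan4-positive cells (linear axis); black bars are medians over the 7 genes and grey diamonds are the 6 rows of the Zscan4 genes above 5 FPKM in Zscan4-positive cells. The 7 genes lie between 0.844% and 1.72% in double-positive cells and at or below 0.542% elsewhere.

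The order of the genes by level was the same in 2 fractions. From highest to lowest in Zscan4-positive cells it was Gm5662, Gm20767, Gm8300, Gm2022, Gm12794, Gm2016 and Gm13119, and the same order held in double-positive cells, where levels were lower by 58.1 to 118 times. In Zscan4-negative, double-negative and single-positive cells Gm20767 was the highest of the set and Gm13119 the lowest. The copies share sequence, so the 7 levels are not independent.

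The 3 Esrrb/Tbx3 fractions did not enter the choice of the genes. In all 7 genes the level was highest in double-positive, intermediate in double-negative and lowest in single-positive cells, an order held by 7.13% of the 13595 rows with at least 1 FPKM in any fraction. The genes pass that minimum through Zscan4-positive cells, and within the Esrrb/Tbx3 line only Gm5662, Gm20767, Gm8300, Gm2022 and Gm12794 reach 1 FPKM, in double-positive cells. The order thus rests on values of which most are below 1 FPKM.

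Double-positive against single-positive cells asks what accompanies Tbx3 while Esrrb is on. Linear FPKM ratios of double-positive to single-positive cells were between 3.86 for Gm2016 and 18.0 for Gm2022, with a median of 10.1, and the ratio of the sums over the 4 EIF1A-like copies was 10.3. On the scale of log2(FPKM + 1), which understates differences of low genes, Gm5662 (1.37), Gm20767 (1.09) and Gm8300 (1.07) were at least 2-fold higher in double-positive cells, 3 of 7 genes, beside 0.346% of all rows compared. The other 4 genes had differences of 0.96 for Gm2022, 0.86 for Gm12794, 0.58 for Gm13119 and 0.48 for Gm2016. The median over the 7 genes was 0.96, and over all rows 0.01. With a pseudocount of 0.1 all 7 genes were at least 2-fold higher, with differences between 1.46 and 2.98, beside 1.13% of all rows.

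The genes that carry the reporters can be set beside that step. Esrrb was at 243 FPKM in double-positive and 177 in single-positive cells, and Tbx3 at 12.6 and 1.75 FPKM. Zscan4c was at 0.671 FPKM in double-positive and 0.0140 in single-positive cells, so the Zscan4 transcript itself differed in the same direction as the 7 genes. Single-positive cells also held transcripts of other cell types. All 5 fibroblast markers reached 1 FPKM there, with a summed level of 723 FPKM against 16.8 FPKM in double-positive cells, and all 4 T cell markers did, with 303 FPKM in single-positive and 8.61 FPKM in double-positive cells. None of these markers was at 0 in either fraction. The 5 ES cell markers summed to 5902 FPKM in double-positive and 4733 FPKM in single-positive cells, a ratio of 1.25. The part of these transcripts in the difference of the 7 genes was not tested.

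Double-positive cells also exceeded double-negative cells, by linear ratios between 1.56 for Gm2016 and 4.87 for Gm13119, with a median of 3.31. On the log2(FPKM + 1) scale only Gm5662 reached 2-fold, with a difference of 1.01, 1 of 7 genes beside 3.81% of all rows, and under equal column totals it did not. The other 6 genes had differences between 0.21 for Gm2016 and 0.74 for Gm2022. With a pseudocount of 0.1, 6 of 7 genes were at least 2-fold higher beside 5.66% of rows, and Gm2016, at 0.53, was not. These double-positive values are the same ones as in the comparison with single-positive cells, so the comparisons are not independent.

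Single-positive cells, which differ from double-negative cells by the Esrrb reporter, held less RNA of all 7 genes than double-negative cells. The linear ratio of single-positive to double-negative cells was between 0.247 for Gm8300 and 0.485 for Gm13119, with a median of 0.309. On the log2(FPKM + 1) scale no gene reached 2-fold, 0 of 7 beside 1.43% of rows at least 2-fold lower, with differences between -0.41 for Gm20767 and -0.08 for Gm13119. With a pseudocount of 0.1, 5 of 7 genes were at least 2-fold lower beside 3.45% of rows, the exceptions being Gm2016 (-0.93) and Gm13119 (-0.48). The fibroblast and T cell markers were also lower in single-positive cells, where their summed levels were 0.718 and 0.698 of those in double-negative cells, 1006 and 434 FPKM. All 7 genes had lower ratios than these sums, but their ratios rest on 1 value per fraction, each below 1 FPKM, with no known spread. Zscan4c was at 0.0140 FPKM in single-positive and 0.339 FPKM in double-negative cells. The part of the marker transcripts in this difference was not tested.

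**Figure D4:**
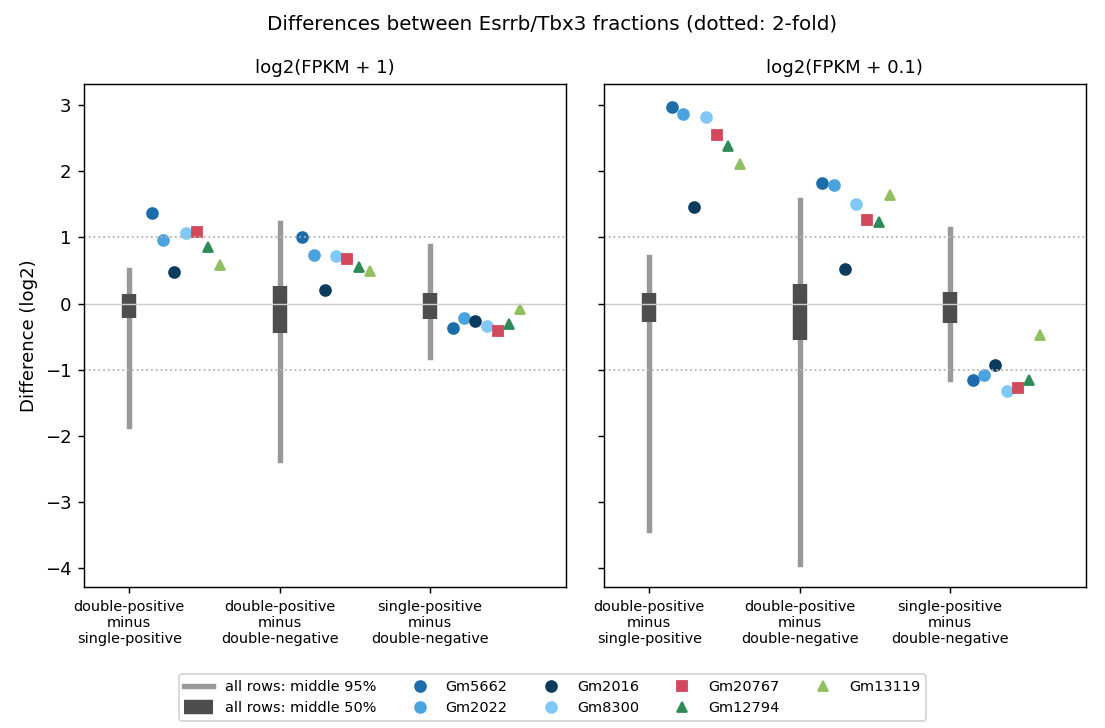
Differences between Esrrb/Tbx3 fractions on the scales log2(FPKM + 1) (left) and log2(FPKM + 0.1) (right); coloured symbols are the 7 genes, and bars span the middle 50% (dark) and middle 95% (light) of 13595 rows. In double-positive minus single-positive cells the genes lie between 0.48 and 1.37 on the left and between 1.46 and 2.98 on the right, while the middle 95% of rows ends at 0.51 and 0.71.

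Across reporter lines, Zscan4-negative cells held less of the 7 genes than double-positive cells. Double-positive levels were 4.84 times the Zscan4-negative level for Gm20767 and 40.2 times for Gm12794, the extremes of the 6 genes above 0 in both. In Zscan4-negative minus double-positive cells Gm5662 (-1.32) and Gm8300 (-1.02) were at least 2-fold lower on the log2(FPKM + 1) scale, beside 0.743% of rows, and with a pseudocount of 0.1 all 7 genes were, beside 2.51%. The double-positive fraction was sorted without regard to Zscan4, and the line, the sort and the choice of the genes by low Zscan4-negative values cannot be told apart in this contrast. In Zscan4-positive minus double-positive cells all 7 genes were at least 2-fold higher, beside 3.35% of rows, with differences between 4.46 and 5.99, and in Zscan4-positive minus Zscan4-negative cells all 7 were, beside 3.46%, with differences between 5.13 and 7.31. Both contrasts use the values that chose the genes, and nothing is read from them.

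Rows outside the set show how the choice was bounded. The set spans down to 34.0 FPKM in Zscan4-positive cells and up to 0.208% of that level in Zscan4-negative cells, and 9 other rows lie inside both limits. Of these, Gm5039, an EIF1A-like gene, was at 150.1 FPKM in Zscan4-positive cells against 0.221 FPKM in Zscan4-negative cells, and Gm4971 at 100.3 and 0.141 FPKM. Zscan4a, Zscan4d, Tmem92 and Arg2 also lie inside, and these 6 rows all had the order double-positive, double-negative, single-positive from high to low. The other 3 are the short RNAs Mir8109, Mir1192 and Scarna8, without that order. Just outside the second limit, Zscan4c was at 0.212% and 1 of the 2 rows of Zscan4f at 0.215% in Zscan4-negative cells, and just outside the first Tdpoz4 had 33.7 FPKM in Zscan4-positive cells. The 3 short RNAs were named after their values were seen.

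Relatives were found by coding sequence, at 80% identity or more over at least 80% of a coding sequence of the set. Among 17 EIF1A-like relatives in GENCODE, 5 have rows in the table. Gm5039, at chr12:88320122-88321762 and 97.5% identical to Gm2016, had 1.13 FPKM in the double-positive fraction, 0.0949 in the single-positive one and 0.614 in the double-negative one. BB287469 has 2 rows, at 18.0 and 2.53 FPKM in Zscan4-positive cells and both at 0 in Zscan4-negative cells. Gm21319 was at 0.433 FPKM in Zscan4-positive cells and listed at 0 elsewhere. Copies of more than 97% identity thus had levels in Zscan4-positive cells from 0.433 to 191 FPKM, a range that includes any uneven assignment of shared reads.

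The broadly expressed relatives had other patterns. Eif1a, with coding identity of 95.1% to Gm8300, was at 202 FPKM in Zscan4-positive cells against 227 FPKM in Zscan4-negative cells, and at 139, 209 and 222 FPKM in double-negative, single-positive and double-positive cells. Eif1ax, the X-linked gene, was at 131 FPKM in Zscan4-positive cells against 187 FPKM in Zscan4-negative cells. In neither gene did any of the 6 comparisons reach 2-fold. In Zscan4-positive cells the 4 EIF1A-like copies summed to 479 FPKM, above the 202 FPKM of Eif1a. Of the Esrrb/Tbx3 fractions, Eif1a was lowest in double-negative cells and the 4 copies in single-positive cells. What part of the copies' low levels comes from Eif1a reads was not tested.

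Of 11 TCSTV-like relatives of Gm20767, 6 have rows, 7 in all. AF067061 was at 15.9 FPKM and Tcstv3 at 14.9 FPKM in Zscan4-positive cells, both at 0 in Zscan4-negative cells, and in double-positive cells they were at 0.509 and 0.217 FPKM. Tcstv1, at 93.6% identity, had 0.235 FPKM in Zscan4-positive cells and was listed at 0 elsewhere. BC147527 was an exception. It was at 23.5 FPKM in Zscan4-positive cells against 0.156 FPKM in Zscan4-negative cells, yet in the other line double-negative cells had 2.73 FPKM, single-positive cells 2.01 and double-positive cells 0.210. Its single-positive level was 0.738 of its double-negative level, next to 0.718 for the summed fibroblast and 0.698 for the summed T cell markers, and what part of its level comes with those transcripts was not tested.

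Of 9 PRAME-like relatives, 4 have rows, 6 in all. Pramef25, 96.9% identical to Gm13119, was at 20.5 FPKM in Zscan4-positive cells against 0.0135 FPKM in Zscan4-negative cells, and at 0.162, 0.0149 and 0.315 FPKM in double-negative, single-positive and double-positive cells. BC080695 was at 7.20 FPKM and B020004J07Rik at 5.52 FPKM in Zscan4-positive cells. These 3 rows had the same order of the Esrrb/Tbx3 fractions as Gm12794 and Gm13119. The 3 rows named Gm13057 were listed at 0 in every fraction, although that gene is 96.7% identical to Gm13119. Over the 19 relatives' rows, none was at least 2-fold higher in double-positive than in single-positive cells on the log2(FPKM + 1) scale, beside 0.346% of all rows, and BC147527 (-1.32) was lower, beside 6.94%. The shares over all rows cover only rows with at least 1 FPKM in any fraction. Of the relatives' rows, 5 EIF1A-like, 3 PRAME-like and 4 TCSTV-like ones reach that minimum. With a pseudocount of 0.1, 2 EIF1A-like, 2 PRAME-like and 3 TCSTV-like rows were at least 2-fold higher, beside 1.13% of all rows, and BC147527 was lower, beside 10.7%. The count for the relatives thus depends on the pseudocount, as it does for the 7 genes.

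Family sums over the 7 genes and their relatives had the order double-positive, double-negative, single-positive from high to low in the EIF1A-like and PRAME-like families and not in the TCSTV-like family. The 2 PRAME-like genes of the set summed to 0.50025 FPKM in double-negative, 0.173 FPKM in single-positive and 1.61 FPKM in double-positive cells, and with their relatives to 0.757, 0.188 and 2.12 FPKM in the same fractions. The EIF1A-like genes with their relatives other than Eif1a and Eif1ax summed to 2.18, 0.620 and 6.49 FPKM in these fractions. Gm20767 with its relatives summed to 3.52 FPKM in double-negative, 2.25 FPKM in single-positive and 2.60 FPKM in double-positive cells, so that the family was highest in double-negative cells, with a ratio of double-positive to single-positive cells of 1.16 and to double-negative cells of 0.739. BC147527 made up 2.73 and 2.01 FPKM of the double-negative and single-positive sums.

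**Figure D5:**
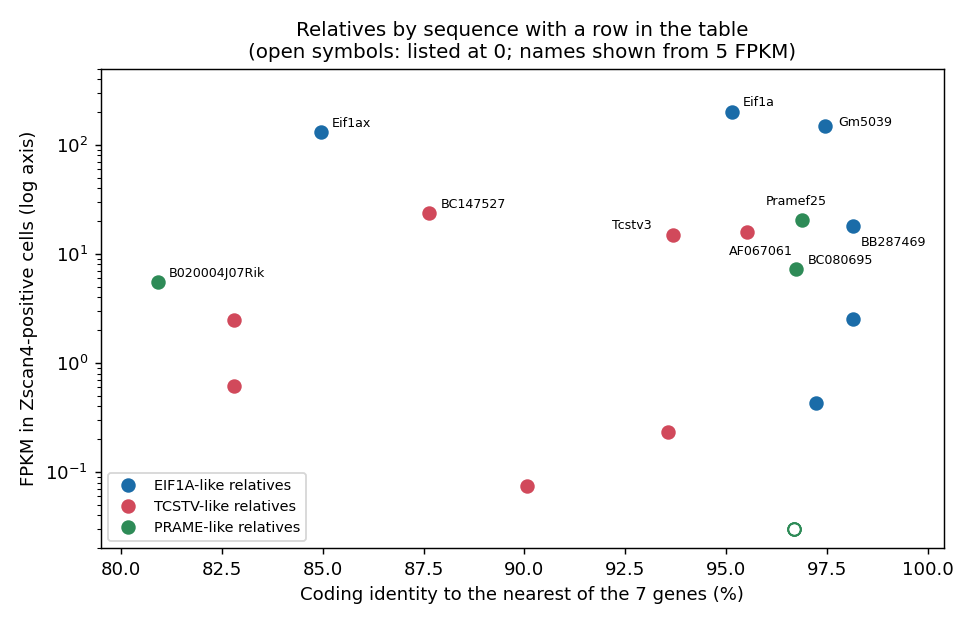
Level in Zscan4-positive cells (FPKM, log axis) of each relative's row against its coding identity to the nearest of the 7 genes; the open symbol, placed at the bottom, stands for the 3 overlapping rows of Gm13057, listed at 0. Rows with more than 95% identity run from 0 to 202 FPKM.

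Other genes of the 2-cell-like state were taken from a list of 39 symbols, of which 33 have rows, 36 in all. Of these rows 27 were at least 2-fold higher in Zscan4-positive than in Zscan4-negative cells and 0 lower, beside 3.46% of all rows higher and 0.875% lower, a contrast on the values that the sort separated. Between double-positive and single-positive cells 0 were at least 2-fold higher on the log2(FPKM + 1) scale and 2 lower, 1 of the 2 rows of Sp110 and Ddit4l, beside 0.346% of all rows higher and 6.94% lower, with a median of 0.15. With a pseudocount of 0.1, 18 were higher and 2 lower, beside 1.13% of all rows higher and 10.7% lower. The order double-positive, double-negative, single-positive from high to low held in 21 of the 36 rows (58.3%), and in 16 of the 28 rows (57.1%) that are no relatives of the 7 genes, beside 7.13% of all rows compared. The rows compared all reach 1 FPKM in any fraction, while 28 of the 36 rows and 22 of the 28 do. All 21 are among the 24 rows with 5 FPKM or more in Zscan4-positive cells. The exceptions among those 24 were Usp17lb, Zscan4b and Ddit4l. The list includes relatives of the 7 genes, and many of its genes are multicopy too.

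Among the most abundant of these genes, Zscan4a was at 151 FPKM in Zscan4-positive cells against 0.246 FPKM in Zscan4-negative cells, and at 0.580, 0.189 and 1.19 FPKM in double-negative, single-positive and double-positive cells. Over the 6 Zscan4 rows the trace was between 0.521% and 0.857% of the Zscan4-positive level in double-positive cells, with a median of 0.749%. That median is below the trace of each of the 7 multicopy genes, and the highest Zscan4 trace is above that of Gm2016 (0.844%) only. In double-negative cells the Zscan4 median was 0.356%, in single-positive cells 0.0934% and in Zscan4-negative cells 0.129%, next to 0.353%, 0.117% and 0.113% for the 7 genes. Usp17le, which encodes a deubiquitinase, had a trace of 1.01% and Tmem92, a membrane protein gene, of 1.17% in double-positive cells. The arginase gene Arg2 and the gene Tdpoz4 were at 0.789% and 0.794%, and Zscan4d and Zscan4c at 0.712% and 0.558%.

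The rows most like the set were ranked by the distance, in percentage points over the 4 other fractions, between their traces and the median traces of the 7 genes, among 8800 rows with at least 5 FPKM in Zscan4-positive cells. The nearest were Usp17la (0.163), Tmem92 (0.169), B020004J07Rik (0.189), the 2 rows of Zscan4f (0.228 and 0.245), Tdpoz3 (0.249), Usp17ld (0.284), Zscan4a (0.284), Gm5039 (0.321) and Gm4971 (0.325). The 7 genes were at 0.0706 for Gm8300 to 0.669 for Gm13119 from that median, and 25 other rows lay within the distance of Gm13119. The median distance over all 8800 rows was 202 percentage points. The distance uses the Zscan4-positive and Zscan4-negative values that chose the genes. A row with similar levels in all fractions lies far from the set by the way the distance is made. The ranking is therefore a description only.

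The FPKM totals of the columns were between 507495 and 552117. The lowest of the 5 ES cell markers was Nanog in double-negative cells, at 79.8 FPKM. Fibroblast and T cell markers were high in the double-negative and single-positive fractions only, and their summed levels were at most 21.04 and 8.61 FPKM in the other 3. The primitive endoderm markers summed to between 0.942 and 4.78 FPKM over the fractions, and the trophectoderm markers to between 3.14 and 13.4 FPKM. Elf5 was at 0 in Zscan4-negative cells. The primitive endoderm markers did not move together. Pdgfra made up 3.69 of the 4.78 FPKM in double-negative cells, where Gata6 (0.834 FPKM) was also highest. Gata4 and Sox17 were highest in Zscan4-positive cells, at 0.749 and 0.653 FPKM.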

How the data were processed

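The values used are FPKM as deposited by the authors, with the 2 libraries of each sorted fraction already merged into 1 column. The submitters' processing notes name bcl2fastq (1.8.4), TopHat2 (2.0.14), Cufflinks, Cuffdiff (2.2.1) and the build mm10, and the labels' protocols name RNeasy extraction and NEBNext Ultra libraries. The sources used here do not tell how multiply mapped reads were treated or how libraries were merged. A row entered the comparisons if any fraction reached 1 FPKM, which 13595 of 32361 rows did. A difference is that of log2(FPKM + 1), with a size rule of 2-fold and no test. The steps were tested on simulated data. That is no check of the 2-fold rule at the low levels of the genes in the Esrrb/Tbx3 fractions. At such levels the rule can miss large ratios. Gm13119 had a linear ratio of double-positive to single-positive cells of 10.1, but a difference of only 0.58. The genes and lists were chosen with earlier results of these data known.

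Named are all 7 genes, up to 10 relatives or 2-cell-like genes per list at 5 FPKM or more in Zscan4-positive cells, and the 10 rows nearest in pattern. Further relatives are named as exceptions, after their values were seen. Relatives were to be taken from gene descriptions. The RefSeq table used here has none, so BLAST+ (2.17.0) against GENCODE M21 transcripts of the same assembly found them, a choice made after values had been seen. Biopython (1.88) aligned coding sequences. The other software was Python (3.11.15) with matplotlib (3.10.9), scipy (1.17.1), numpy (2.4.6) and pandas (2.3.3). Starts count from 0 in the table and from 1 here. Alternatives were other pseudocounts, filters and column scalings, and rows summed by symbol.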

Additional observations from a re-analysis of the deposited data

How the results depend on the processing

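The low traces make the counts past 2-fold depend on the pseudocount, because a pseudocount of 1 FPKM exceeds most of the values. With 0.1 in place of 1, 7 in place of 3 genes were higher in double-positive than in single-positive cells, 6 in place of 1 higher in double-positive cells than in cells negative for both reporters, 5 in place of 0 lower in single-positive cells than in those, and 7 in place of 2 lower in Zscan4-negative than in double-positive cells. With 0.5 these counts were 5, 3 and 6, and 0 for the single-positive step. Under equal FPKM totals 0 in place of 1 gene was higher in double-positive cells than in double-negative ones and 1 in place of 2 lower in Zscan4-negative than in double-positive cells. Of 294 differences of single genes under 7 alternatives, 265 kept their side of 2-fold and 0 reversed. The row filters and the sums by symbol cannot change these differences, as each gene has 1 row and passes the filters. A pseudocount cannot reverse a sign. All 7 genes kept the order double-positive, double-negative, single-positive under each of the 7 alternatives, a count added after seeing the data, and no median trace moved by over 1.5 times. Order and traces are taken from FPKM without a pseudocount, so only the column scalings could have changed them.

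Over all rows, a pseudocount of 0.1 gave 153 in place of 47 higher and 1460 in place of 943 lower rows in double-positive minus single-positive cells, 428 in place of 247 and 469 in place of 195 in single-positive minus double-negative cells, 835 in place of 470 and 280 in place of 119 in Zscan4-positive minus Zscan4-negative cells, 864 in place of 456 and 253 in place of 94 in Zscan4-positive minus double-positive cells, and 339 in place of 111 and 341 in place of 101 in Zscan4-negative minus double-positive cells. A pseudocount of 0.5 gave 75 higher rows in double-positive minus single-positive cells and 172 higher and 173 lower rows in Zscan4-negative minus double-positive cells. A filter of 5 FPKM tests fewer rows and gave 612 in place of 943 and, in double-positive minus double-negative cells, 972 in place of 1656 lower rows, and 303 in place of 470 and 296 in place of 456 higher rows in Zscan4-positive cells against Zscan4-negative and double-positive cells.

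No paired analysis was possible because the table holds 1 merged value per fraction, and for the same reason no replicate was left out. Read depth is unknown, and no floor is given for values listed at 0.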
